A study of Homo sapiens with 40 samples.

Results

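The glucocorticoid receptor NR3C1 and 5 genes known to respond to it (TSC22D3, FKBP5, PER1, KLF9 and BCL6) were followed through a series on QKI, an RNA-binding protein that controls splicing, in T-ALL, the T-lineage form of acute lymphoblastic leukaemia. The genes were chosen by symbol, because glucocorticoids are core drugs in T-ALL treatment, and all 6 were found among the 62754 genes of each of 3 RNA-seq count tables. The series holds 40 libraries in 10 groups of 4. Jurkat cells, a T-ALL line, received QKI siRNA or a non-targeting control siRNA by electroporation, per the labels; the control columns of the Jurkat table are headed as a non-targeting shRNA instead, and were taken as these controls because Jurkat has no other control group. Another set of cells, labelled as the T-ALL line HPB-ALL, received a viral vector with QKI shRNA or a non-targeting control shRNA. The T-ALL lines DND-41, LOUCY, TALL-1, ALL-SIL, HPB-ALL and KARPAS-45 were sequenced untreated. All cells grew in medium with fetal calf serum, at 20% for HPB-ALL and KARPAS-45 and at 10% for the others, and no glucocorticoid is named among the treatments. The levels below are therefore taken as those of cells without an added steroid, and no response to one was measured. Any steroid in the serum was not measured either, and the part of the serum share in differences between lines was not tested.

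Glucocorticoid hormones and drugs such as dexamethasone and prednisolone enter the cell and bind the receptor encoded by NR3C1, which waits in the cytoplasm in a complex with heat shock proteins and immunophilins. The bound receptor moves to the nucleus, attaches to DNA at glucocorticoid response elements and raises or lowers transcription of nearby genes. In immature lymphoid cells this programme ends in apoptosis, which is why these steroids are used against lymphoblastic leukaemia. TSC22D3 encodes GILZ, a leucine zipper protein induced by the steroid and a mediator of its anti-inflammatory action. FKBP5 encodes FKBP51, an immunophilin of the receptor complex that lowers hormone binding and so acts as a negative feedback. PER1 is a repressor of the circadian clock, KLF9 a zinc finger transcription factor and BCL6 a zinc finger transcriptional repressor, all induced by glucocorticoids in several tissues.

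Levels are given as CPM, counts scaled to a common library size, with TMM normalization within each of the 3 tables, so that levels in the Jurkat, labelled HPB-ALL and untreated libraries stand side by side and were not tested against each other. Total counts per library were 68379879 to 134209287 in Jurkat, 81048583 to 134916505 in the libraries labelled HPB-ALL and 44093984 to 83952970 in the untreated lines. QKI itself, the targeted gene, fell in Jurkat from 148 ± 19.5 CPM (SD, n = 4) to 21.5 ± 4.22 CPM (edgeR adjusted p = 0.000128) and in the libraries labelled HPB-ALL from 104 ± 2.58 to 55.8 ± 1.42 CPM (edgeR adjusted p = 2.38e-08). The libraries labelled HPB-ALL with an shRNA did not carry the markers of that line. Their 8 T-cell markers summed to 0.401 to 0.641 CPM, against 2900 to 3730 CPM in untreated HPB-ALL, and CD5 and LCK had no count in the 4 control libraries. Their 12 myeloid markers summed to 2980 to 3580 CPM, against 15.1 to 34.7 CPM in untreated HPB-ALL. Below, "labelled HPB-ALL" stands for these 8 libraries and "untreated HPB-ALL" for the line. All 24 untreated libraries correlated best with the mean of the other libraries of their own line, and the T-cell markers summed to 1360 to 1660 CPM in Jurkat. The knockdown replicates are described as biological; for the untreated lines nothing says whether replicates came from separate cultures, so p-values among them measure the spread between these libraries only.

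All 6 genes lie on the minus strand of GRCh38 and are annotated as protein coding in GENCODE 29. NR3C1 (ENSG00000113580) spans chr5:143277931-143435512, TSC22D3 (ENSG00000157514) chrX:107713221-107777342 and FKBP5 (ENSG00000096060) chr6:35573585-35728583. PER1 (ENSG00000179094) spans chr17:8140472-8156506, KLF9 (ENSG00000119138) chr9:70384597-70414624 and BCL6 (ENSG00000113916) chr3:187721377-187745727. The counts do not say which strand setting was used, and every member but KLF9 overlaps another annotated gene, so reads of NCBP2L, for example, which lies on the strand opposite TSC22D3, cannot be told apart from those of TSC22D3 without strand.

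Because QKI binds RNA at the sequence ACTAAY, where Y is C or T, with a half-site nearby, the longest annotated coding transcript of each member was searched for ACTAAC or ACTAAT and for either of these within 1 to 20 bases of a half-site, TAAC or TAAT, on either side. NR3C1 held 4 such hexamers, KLF9 held 2 and BCL6 held 1. No hexamer was found in TSC22D3, FKBP5 or PER1. Counted by where a match starts, NR3C1 held 2 matches of a hexamer with a half-site, which may share a hexamer. KLF9 and BCL6 held no such match. Of 19669 protein-coding genes, 43.9% held at least 1 hexamer and 19% at least 1 with a half-site. Of the 2 NR3C1 matches with a half-site, a short one that starts with the hexamer is shown, because QKI was the gene depleted in both knockdowns. It lies at bases 4223 to 4244 of transcript ENST00000343796, with the hexamer and the half-site in capitals.
NR3C1: agACTAATttaaaaaaTAACta

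The 17 RefSeq promoter windows of the members (GRCh38.p14, 250 bases before to 50 after each annotated start) were searched on both strands over the bases before the start. None held the glucocorticoid half-site AGAACA, which 12.4% of 35116 such windows hold, or the full element, AGAACA and TGTTCT with 3 bases between them, which 0.00285% hold. A match says only that the letters are there, and no match only that they are not in these windows; the well-studied receptor elements of FKBP5 lie in its introns. The E-box CACGTG, the site of the clock factors CLOCK and BMAL1, is held by 6.34% of windows and was found 173 bases before a start of PER1 and 227 bases before a start of FKBP5. The forkhead site GTAAACA, held by 2.98% of windows, was found 147 bases before a start of TSC22D3 and 59 bases before a start of NR3C1, in both on the opposite strand. Forkhead factors of the FOXO family are known to act on the TSC22D3 promoter. The stretches around the sites of the 3 response genes are shown where no annotated exon covers them, with the sites in capitals, since these are the 3 members that differed over the most pairs of lines below. They are chrX:107717136-107717312, chr6:35688943-35689165 and chr17:8152436-8152654, each read on the minus strand.
TSC22D3: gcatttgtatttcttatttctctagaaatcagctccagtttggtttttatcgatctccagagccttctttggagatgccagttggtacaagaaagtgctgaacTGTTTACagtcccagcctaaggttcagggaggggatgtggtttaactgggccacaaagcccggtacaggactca
FKBP5: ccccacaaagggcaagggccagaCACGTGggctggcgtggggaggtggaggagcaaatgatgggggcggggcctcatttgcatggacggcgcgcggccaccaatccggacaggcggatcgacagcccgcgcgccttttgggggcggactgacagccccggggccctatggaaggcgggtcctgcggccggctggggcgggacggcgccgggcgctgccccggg
PER1: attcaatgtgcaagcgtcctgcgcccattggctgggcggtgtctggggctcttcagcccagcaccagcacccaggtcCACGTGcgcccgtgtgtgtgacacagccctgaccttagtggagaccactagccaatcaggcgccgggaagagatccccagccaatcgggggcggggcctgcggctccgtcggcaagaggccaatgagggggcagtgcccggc

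Among the untreated lines the means of NR3C1 (43.8 to 180 CPM) and PER1 (14.2 to 49.5 CPM) lay in narrow ranges, while those of TSC22D3 (0.0446 to 783 CPM) and FKBP5 (5.53 to 640 CPM) lay in wide ones, and the order of the lines differed from gene to gene. TSC22D3 was highest in LOUCY and at a few counts in KARPAS-45, FKBP5 was highest in KARPAS-45 and lowest in DND-41, and KLF9 was near 0 in every line. All 5 members that passed the filter on low counts differed among the 6 lines (edgeR F test, adjusted p from 6.23e-18 for FKBP5 to 8.15e-07 for NR3C1), as did 98% of the 20348 genes tested. Of the 75 gene and line pair combinations, 60 passed the edgeR test at an adjusted p of 0.05, beside 65.1% of all gene and pair combinations (51.9% to 76.1% depending on the pair). In bulk RNA, fewer cells with a transcript and less of it per cell cannot be told apart.

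**Figure D1:**
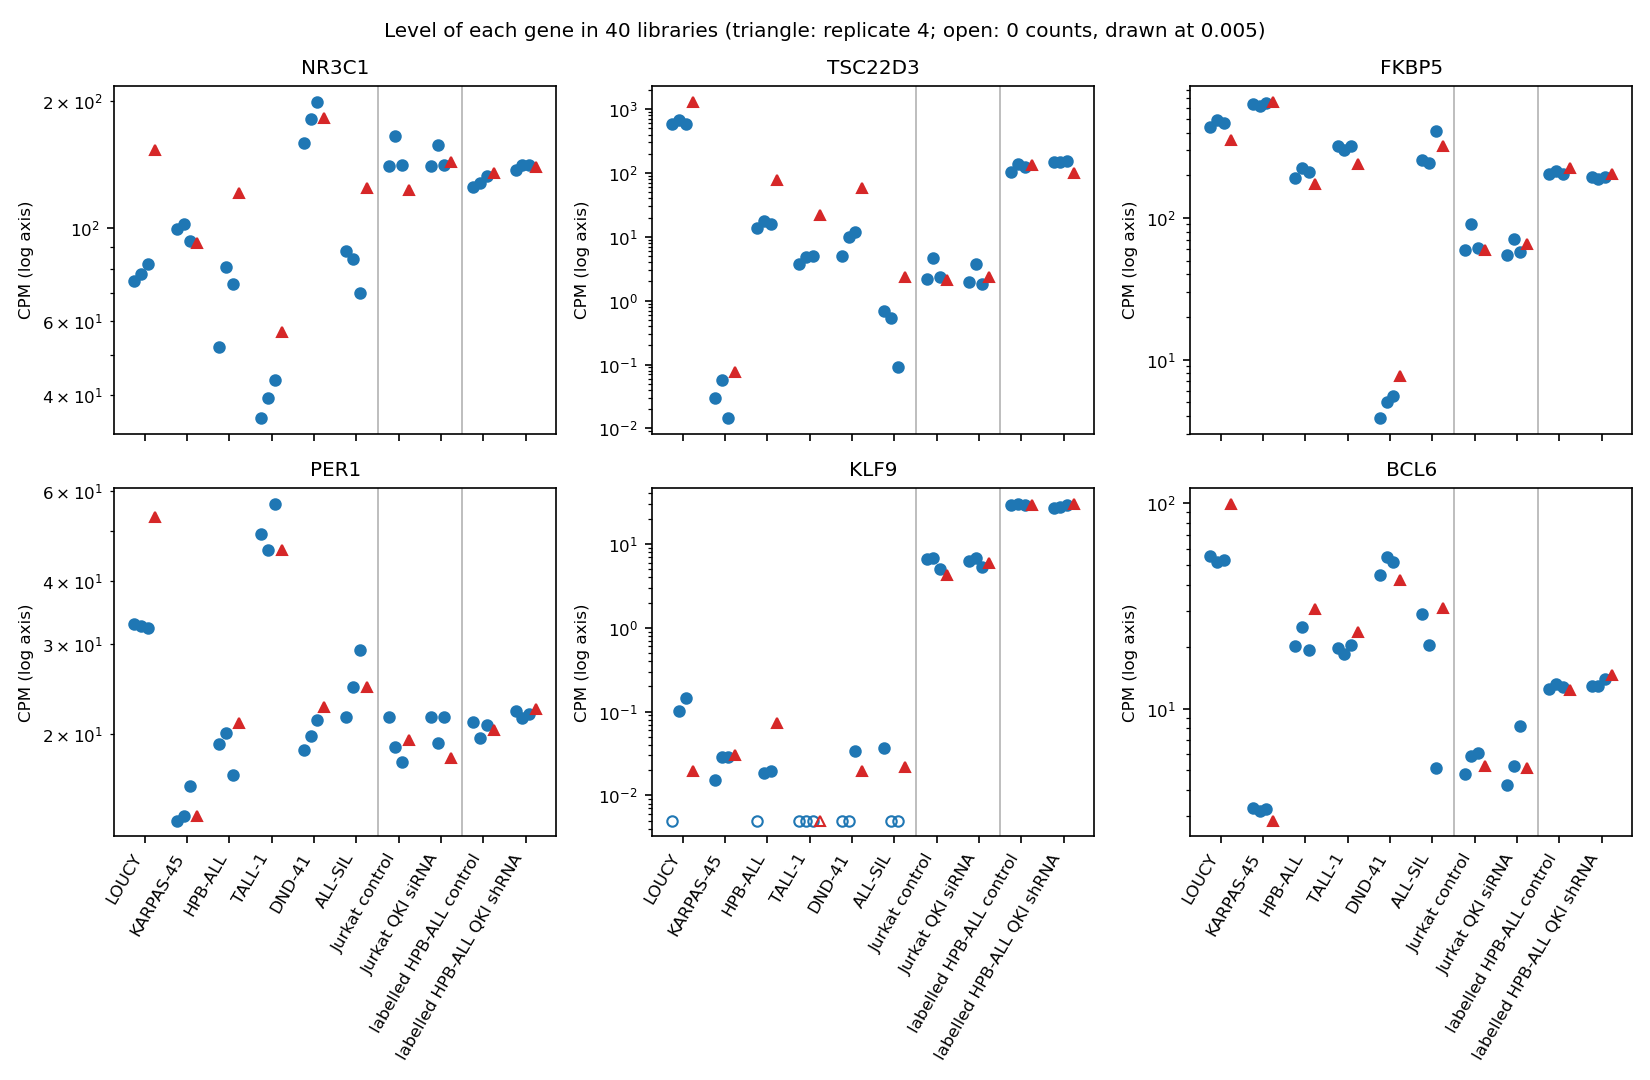
Level of each gene in CPM (log axis, a different range for each gene) in every library of the 6 untreated lines, the Jurkat groups and the groups labelled HPB-ALL, each separated by a vertical line because each was normalized alone. Red triangles are replicate 4 and open symbols are libraries with 0 counts; TSC22D3 covers the widest range among the lines, from 0.0144 CPM in KARPAS-45 to 1300 CPM in LOUCY, and its triangle is the highest library of every untreated line.

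NR3C1, the receptor, was present in all 40 libraries. Its 4 DND-41 libraries stood at 159, 181, 199 and 182 CPM, and the 4 TALL-1 libraries at 35.3, 39.5, 43.6 and 56.6 CPM. Every DND-41 library was above every library of the other 5 lines, and the TALL-1 libraries overlapped only with the lowest HPB-ALL library. The 4 lines between them had means of 96.9 ± 37.5 CPM in LOUCY, 96.7 ± 4.88 in KARPAS-45, 91.5 ± 23 in ALL-SIL and 81.8 ± 28.9 in HPB-ALL (SD, n = 4). No pair among these 4 passed the test, with log2 differences of at most 0.24 (SE 0.23). Without replicate 4 of every line, a choice made after these values were seen, KARPAS-45 exceeded HPB-ALL by 0.52 (SE 0.13, edgeR adjusted p = 0.00116), and no other of these pairs passed. DND-41 exceeded LOUCY, the next line, by 0.90 on the log2 scale (SE 0.23, edgeR adjusted p = 0.00135), and HPB-ALL exceeded TALL-1 by 0.90 (SE 0.23, edgeR adjusted p = 0.00142). In Jurkat the receptor stood at 142 ± 17.1 CPM in the control libraries and in the libraries labelled HPB-ALL at 130 ± 4.49 CPM.

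TSC22D3 covered the widest range. LOUCY held 577, 672, 582 and 1300 CPM, and KARPAS-45 held 12 counts over its 4 libraries, from 1 to 5 in each, or 0.0144 to 0.0767 CPM. The other lines lay between, with 13.8, 17.6, 15.9 and 77.1 CPM in HPB-ALL and 4.98, 9.85, 11.9 and 57.9 CPM in DND-41. TALL-1 held 3.73, 4.89, 5.03 and 22.3 CPM, and ALL-SIL 0.685, 0.537, 0.0913 and 2.31 CPM. The 4 LOUCY libraries were all above every other library of the untreated lines, and the KARPAS-45 libraries were all below every other one. At the low end this rests on library size, since ALL-SIL replicate 3 and KARPAS-45 replicate 4 both held 5 counts. In each line the last value, replicate 4, was the highest. LOUCY exceeded HPB-ALL, the next line, by 4.65 on the log2 scale (SE 0.85, edgeR adjusted p = 6.46e-05). HPB-ALL and DND-41 differed by 0.56 (SE 0.74, edgeR adjusted p = 0.554), and DND-41 and TALL-1 by 1.24 (SE 0.76, edgeR adjusted p = 0.182), so that DND-41 was not separated from either of them, while HPB-ALL and TALL-1 differed by 1.80 (SE 0.77, edgeR adjusted p = 0.0483). With replicate 4 of every line left out, all 15 pairs of lines passed the test for TSC22D3, against 13 of 15 with all libraries. That fit was chosen after these values were seen and takes out the highest library of each line. Its smaller spread and added calls are thus no support for a difference. The share of all gene and pair combinations called in it was not counted. TSC22D3 stood at 2.81 ± 1.23 CPM in control Jurkat and at 124 ± 13.7 CPM in the control libraries labelled HPB-ALL.

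FKBP5 was highest in the line with the lowest TSC22D3 and lowest in DND-41. KARPAS-45 held 633, 619, 646 and 660 CPM, and DND-41 held 3.85, 5, 5.57 and 7.69 CPM. No other library of the untreated lines fell below 173 CPM, so that DND-41 stood alone at the low end although its receptor level was the highest. HPB-ALL, at 200 ± 22.5 CPM and the next line above it, exceeded DND-41 by 5.18 on the log2 scale (SE 0.20, edgeR adjusted p = 4.26e-17). KARPAS-45 exceeded LOUCY, at 439 ± 59.7 CPM, by 0.54 (SE 0.17, edgeR adjusted p = 0.00601). ALL-SIL (308 ± 76.5 CPM) and TALL-1 (297 ± 39.3 CPM) were the only neighbours in the order that did not differ past the threshold (log2 difference 0.05, SE 0.17, edgeR adjusted p = 0.835). Jurkat controls held 67.6 ± 14.9 CPM and the control libraries labelled HPB-ALL 212 ± 9.94 CPM.

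PER1, the clock repressor, varied within a narrower range. TALL-1 held 49.4, 46, 56.5 and 45.9 CPM, LOUCY 32.8, 32.5, 32.2 and 53.3 CPM, and KARPAS-45 13.5, 13.8, 15.8 and 13.8 CPM. The LOUCY libraries were below all TALL-1 libraries except replicate 4, which lay among them. TALL-1 exceeded LOUCY by 0.39 on the log2 scale (SE 0.14, edgeR adjusted p = 0.0169). ALL-SIL (25 ± 3.12 CPM), DND-41 (20.6 ± 1.75 CPM) and HPB-ALL (19.2 ± 1.92 CPM) followed. Among these 3 the neighbours did not pass the test, while the outer lines did (HPB-ALL minus ALL-SIL, log2 -0.38, SE 0.14, edgeR adjusted p = 0.0217). Without replicate 4 of every line DND-41 and ALL-SIL passed too (DND-41 minus ALL-SIL, log2 -0.33, SE 0.12, edgeR adjusted p = 0.0226). KARPAS-45 lay below HPB-ALL by 0.43 (SE 0.14, edgeR adjusted p = 0.00815). Jurkat controls stood at 19.4 ± 1.67 CPM and the control libraries labelled HPB-ALL at 20.5 ± 0.644 CPM.

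BCL6, the repressor, was highest in LOUCY at 55, 51.8, 52.9 and 98.7 CPM and in DND-41 at 44.6, 54.6, 51.6 and 42.3 CPM. These 2 lines overlapped and did not differ past the threshold (log2 difference 0.42, SE 0.31, edgeR adjusted p = 0.25). KARPAS-45 held 3.28, 3.18, 3.24 and 2.85 CPM and was below every other untreated library. TALL-1, the next line, stood at 20.5 ± 2.2 CPM, which was 2.71 higher on the log2 scale (SE 0.34, edgeR adjusted p = 2.07e-07). In ALL-SIL, 1 library was far from the rest, with 28.8, 20.4, 5.15 and 30.8 CPM; replicate 3 of that line, the low one, also had the lowest TSC22D3 (0.0913 CPM) and the highest FKBP5 (411 CPM) of its 4 libraries. Jurkat controls held 5.5 ± 0.568 CPM and the control libraries labelled HPB-ALL 12.7 ± 0.382 CPM.

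KLF9 did not pass the filter in the untreated lines. Summed over 4 libraries it had 14 counts in LOUCY, 7 in KARPAS-45, 6 in HPB-ALL, 3 in DND-41, 3 in ALL-SIL and none in TALL-1. For a TALL-1 library, 0 counts allow a level of up to 0.0468 to 0.0582 CPM (3 counts of the total, counting error only). KLF9 was present in the other tables, at 6.68, 6.75, 5.01 and 4.28 CPM in Jurkat controls and at 28.8, 29.8, 29.2 and 29.5 CPM in the control libraries labelled HPB-ALL. The highest untreated HPB-ALL library held 0.073 CPM. KLF9 was thus near 0 in all untreated lines and present in all groups of the other tables, which were not tested against each other. For KLF9, a difference between the cells under the name HPB-ALL and a difference between the tables cannot be told apart.

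Per kilobase of exon, the scale on which different genes can be compared, the highest mean level of any member in any line was TSC22D3 in LOUCY, at 164 CPM per kilobase. FKBP5 in KARPAS-45 followed at 60.2, and NR3C1 in DND-41 stood at 19.7. In KARPAS-45 the same scale put NR3C1 at 10.5 and TSC22D3 at 0.00937 CPM per kilobase. In DND-41, FKBP5 stood at 0.52 CPM per kilobase beside the receptor at 19.7. The order of the lines by receptor level was thus not the order by any response gene.

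QKI levels divide the same lines differently. QKI had 0 counts in all 4 LOUCY libraries and 6.71 ± 0.776 CPM in KARPAS-45, against means of 88 to 162 CPM in the other 4 lines. These QKI-poor lines lay at opposite ends for TSC22D3 (783 ± 349 against 0.0446 ± 0.0277 CPM) and for BCL6 (64.6 ± 22.8 against 3.14 ± 0.194 CPM). For FKBP5 they were the 2 highest lines, and for NR3C1 they did not pass the test (log2 difference 0.00, SE 0.23, edgeR adjusted p = 1). That value rests on LOUCY replicate 4 at 153 CPM. The other LOUCY libraries, at 74.8 to 82 CPM, were below every KARPAS-45 library, at 92.2 to 102 CPM, and without replicate 4 of every line the difference was -0.29 (SE 0.13, edgeR adjusted p = 0.0546). The lines differ in much besides QKI, and its part in these levels was not tested.

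The genes whose log2 CPM followed each member most closely over the 24 untreated libraries are given as a description, since libraries of a line share its whole makeup. For NR3C1 they were PPP2R5B, ZNF571 and CDKL1 (Pearson r = 0.941, 0.905 and 0.903). TSC22D3 was followed by ADCY3 and LRP10 (0.945 and 0.917), and FKBP5 by CDCA7L, MTERF1 and EIPR1 (0.987, 0.98 and 0.975). ZMYM2, SCART1 and WDFY2 followed PER1 (0.938, 0.92 and 0.917), and PHF21A, CD44 and LRIG1 followed BCL6 (0.961, 0.931 and 0.929). They were among the 3 highest of 9940 protein-coding genes compared, and no member was among another member's 3 closest genes.

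Other genes of the pathway also differed among the lines. All 22 genes of the receptor complex and its cofactors passed the F test, as did all 24 other response genes, all 5 apoptosis genes and all 8 genes tied to steroid resistance that were tested, beside the 98% of all genes. KARPAS-45, with the highest FKBP5 and almost no TSC22D3, had the highest level of the coactivator NCOA1 (295 ± 12.4 CPM), the Mediator subunit MED14 (196 ± 6.92 CPM), the chromatin remodeller SMARCA4 (749 ± 34.1 CPM) and the corepressor NRIP1 (150 ± 6.56 CPM). The phosphatase PPP5C, of the receptor complex, was highest in TALL-1 (125 ± 6.97 CPM) and lowest in HPB-ALL (47.2 ± 4.25 CPM). The mineralocorticoid receptor NR3C2, which also binds cortisol, reached 4.06 ± 0.801 CPM in LOUCY.

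Of the other response genes, LOUCY had the highest level of the phosphatase DUSP1 (37.7 ± 4.43 CPM) and of ZBTB16 (13.4 ± 2.42 CPM). It was also the line with the highest TSC22D3. Summed over the 25 other response genes listed, LOUCY was the lowest line, at 743 to 909 CPM a library. The other lines summed to at least 1490 CPM. Abundant genes weigh most in such a sum. LOUCY was the lowest line for CXCR4 (119 ± 32.9 CPM, against 775 ± 184 in KARPAS-45). The same held for MYC (0.0143 ± 0.0185 against 466 ± 49.1 CPM). LOUCY was also lowest for SGK1 and ERRFI1, and highest for MT2A, ZFP36, CRISPLD2 and MT1X. The sum thus does not describe the response genes gene by gene. KARPAS-45 had the lowest levels of the cytokine signalling inhibitor SOCS1 (0.187 ± 0.0693 CPM), of the interleukin 7 receptor IL7R (0.177 ± 0.0277 CPM) and, with no count, of ELL2 and ZBTB16 (ALL-SIL also had no count of ELL2, and TALL-1 none of ZBTB16). DND-41 held 189 ± 13.6 CPM of SOCS1 and 639 ± 59.3 CPM of IL7R. Among the apoptosis genes, BCL2L11, whose product BIM carries out glucocorticoid-induced death, was lowest in HPB-ALL at 2.6 ± 0.887 CPM and highest in ALL-SIL at 109 ± 9.2 CPM. HPB-ALL was also the lowest line for the survival genes BCL2 (63.2 ± 8.96 CPM) and BCL2L1 (83 ± 10.4 CPM), and DND-41 the highest for both (391 ± 91.4 and 404 ± 42.5 CPM).

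Of the genes tied to steroid resistance, TBL1XR1, a corepressor exchange factor, ranged from 43 ± 2.73 CPM in TALL-1 to 478 ± 29.1 CPM in KARPAS-45. CASP1, whose product cleaves the receptor, ranged from 0.0036 ± 0.0072 CPM in KARPAS-45 to 21.1 ± 2.03 CPM in DND-41. The clock genes around PER1 did not share its order. PER3, a paralogue of PER1, was highest in LOUCY at 30.3 ± 11.8 CPM and lowest in TALL-1 at 0.386 ± 0.157 CPM, the line with the most PER1. BMAL1, the activator that works on E-boxes, had no count in LOUCY, KARPAS-45 or TALL-1 and 21.9 ± 1.33 CPM in ALL-SIL.

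Within the untreated lines, replicate 4 stood apart for TSC22D3. It was the highest library in all 6 lines, at 2.13 times the mean of the other 3 in LOUCY, 4.89 times in HPB-ALL, 4.89 times in TALL-1, 6.51 times in DND-41 and 5.27 times in ALL-SIL. In KARPAS-45 it was the highest with 5 counts. Of all 20348 genes tested, 1.31% were highest in replicate 4 in all 6 lines, and TSC22D3 ranked 11 by the median log2 difference (2.30). No test was made of this pattern, which was seen in these values. Nothing in the labels sets replicate 4 apart.

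**Figure D2:**
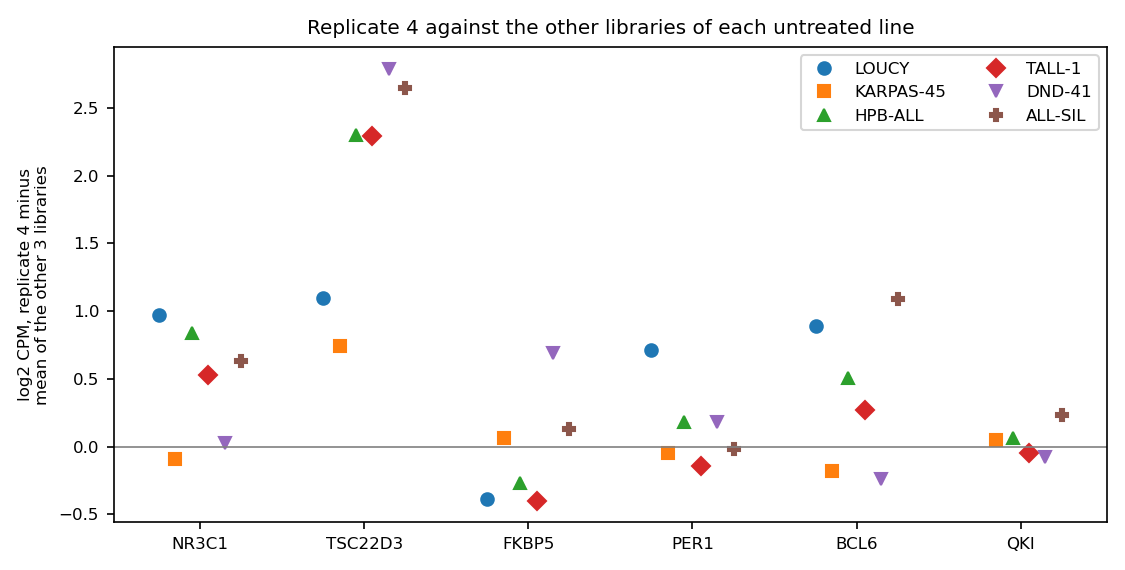
Difference between replicate 4 and the mean of the other 3 libraries in log2 CPM (prior count 2), for each untreated line, the members and QKI. KLF9 is not drawn, nor is QKI in LOUCY, where it had 0 counts. For TSC22D3 all 6 lines lie above 0, from 0.74 to 2.79, NR3C1 lies above 0 in 5 lines, from 0.03 to 0.97, and QKI lies between -0.08 and 0.23.

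The receptor was higher in replicate 4 than in all other libraries of the line in 4 of 6 lines, at 1.96 times the mean of the others in LOUCY, 1.76 in HPB-ALL, 1.43 in TALL-1 and 1.54 in ALL-SIL. In KARPAS-45 the ratio was 0.939 and in DND-41 1.01. By the median log2 difference (0.58) NR3C1 ranked 1004 of the 20348 genes tested. Of these genes, 6.69% were highest in replicate 4 in at least 5 lines, and the share for at least 4 lines was not counted. FKBP5 did not follow, with ratios from 0.757 in TALL-1 to 1.6 in DND-41, below 1 in 3 lines and above 1 in 3. PER1 and BCL6 had their replicate 4 far above the others in LOUCY (ratios 1.64 and 1.86). In the other lines the PER1 ratio lay between 0.906 in TALL-1 and 1.13 in HPB-ALL and DND-41. BCL6 was highest in replicate 4 in 4 lines, also at 1.7 in ALL-SIL, 1.42 in HPB-ALL and 1.21 in TALL-1. It was lowest in 2, at 0.882 in KARPAS-45 and 0.842 in DND-41. Of the 24 other response genes, 3 were highest in replicate 4 in all 6 lines, namely IRS2 (median log2 difference 0.66), ISG20 (0.62) and BTG1 (0.85), and none was lowest in all 6. The median over the list was 0.05, beside 0 over all genes. TXNIP (0.52), PIK3IP1 (0.37) and SESN1 (0.08) were highest in 4 lines each. MT2A (-0.42), IL7R (-0.57) and MYC (-0.75) were lowest in 4 lines each. The pro-apoptotic BMF was also highest in all 6 (median 1.22), and the survival gene BCL2L1 was lowest in all 6 (median -0.31), as 1.68% of all genes were. Of the 8 T-cell markers, LCK and CD3D were lowest in replicate 4 of all 6 lines (medians -0.38 and -0.28). CD2 and CD7 were lowest in 3 lines each. CD3E went the other way, highest in 4 lines and lowest in 1 (median 0.15). The part of whatever sets these libraries apart was not tested. Deviations from the line means correlated among the 6 replicate 4 libraries with a median Pearson r of 0.27 over 15 pairs of libraries, across genes, against medians of 0.00409 to 0.0636 for the other numbers.

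In Jurkat, QKI depletion moved none of the 6 genes past the threshold. Log2 fold changes lay between -0.20 and 0.10, and the groups overlapped for every member, where 1.07% of all genes had groups that did not overlap. The edgeR test called 0.0047% of the 21296 genes, which was 1 gene, QKI, with 180 genes at an unadjusted p under 0.05. That is a smaller share than such a threshold passes when nothing differs, so this fit without a block was conservative. The replicate numbers were taken to pair these libraries, on the ground of their values. With the number as a block the test called 0.0517% of genes (11), no member among them (edgeR adjusted p from 0.819 to 0.978). In that fit 1386 genes had an unadjusted p under 0.05.

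NR3C1 stood at 140, 157, 141 and 143 CPM with QKI siRNA and at 140, 165, 141 and 123 CPM in controls, which is a log2 fold change of 0.03 (SE 0.12). The QKI siRNA libraries lay within the range of the controls. TSC22D3 stood at 1.97, 3.69, 1.83 and 2.33 CPM against 2.2, 4.64, 2.32 and 2.07 CPM in controls (log2 -0.20, SE 0.33), with replicate 2 the highest of both groups. FKBP5 stood at 55, 70.8, 57.3 and 65.5 CPM against 59.6, 89.9, 60.9 and 59.8 CPM (log2 -0.12, SE 0.16), again with replicate 2 highest in each. PER1, KLF9 and BCL6 had log2 values of 0.05 (SE 0.12), 0.10 (SE 0.19) and 0.05 (SE 0.22). With the replicate block the standard error of NR3C1 was 0.063 around a log2 fold change of 0.04, that of FKBP5 0.074 around -0.10 and that of TSC22D3 0.15 around -0.17.

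QKI shRNA in the libraries labelled HPB-ALL moved 23.6% of 17974 genes past the edgeR threshold and no member. The receptor and PER1 had higher values and FKBP5 lower values with QKI shRNA, by 0.10 to 0.11 on the log2 scale, in groups that did not overlap, and their adjusted p lay between 0.0681 and 0.0853. Groups did not overlap for 3 of the 6 members, and for 26.2% of all genes. The absolute log2 fold change had a median of 0.10 over the members, 0.13 over all genes tested and 0.23 over the genes that passed.

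**Figure D3:**
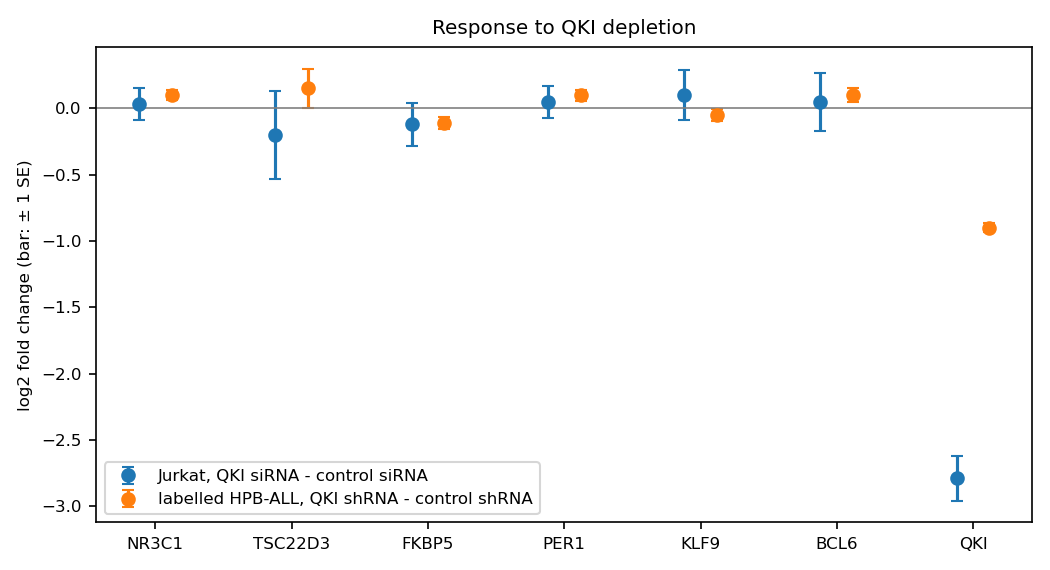
Log2 fold change of each member and of QKI after QKI depletion in Jurkat (blue) and in the libraries labelled HPB-ALL (orange), with bars of 1 standard error from edgeR, 4 libraries a group. The members lie between -0.20 and 0.15 in both, beside -2.79 and -0.90 for QKI.

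NR3C1 stood at 125, 128, 133 and 135 CPM in the controls and at 137, 141, 141 and 139 CPM with QKI shRNA (log2 0.10, SE 0.036, edgeR unadjusted p = 0.0181 and adjusted p = 0.0681). All 4 QKI shRNA libraries were above all 4 controls. Without control library 4 the adjusted p was 0.0473 and the log2 fold change 0.12, so the side of the threshold on which NR3C1 falls depends on that library. FKBP5 stood at 205, 213, 204 and 225 CPM in the controls and at 196, 189, 196 and 204 CPM with QKI shRNA (log2 -0.11, SE 0.042, edgeR adjusted p = 0.07). PER1 stood at 21.1, 19.6, 20.8 and 20.3 CPM in the controls and at 22.2, 21.5, 21.9 and 22.4 CPM with QKI shRNA (log2 0.10, SE 0.041, edgeR adjusted p = 0.0853). For FKBP5 the lowest control and the highest QKI shRNA library both rounded to 204 CPM, and for PER1 the gap lay between 21.1 and 21.5 CPM.

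TSC22D3 stood at 105, 136, 126 and 131 CPM in the controls and at 151, 150, 152 and 99.3 CPM with QKI shRNA (log2 0.15, SE 0.15, edgeR adjusted p = 0.535). The QKI shRNA libraries were above all controls except replicate 4, which was below all of them. Without that library the log2 fold change was 0.28 and the edgeR adjusted p 0.0222. KLF9 stood at 28.8, 29.8, 29.2 and 29.5 CPM against 26.8, 27.3, 29.4 and 29.8 CPM (log2 -0.05, SE 0.044), with overlapping groups. BCL6 stood at 12.4, 13.2, 12.8 and 12.3 CPM against 12.9, 12.9, 14 and 14.6 CPM (log2 0.10, SE 0.052), also overlapping. In the same comparison 6 of 11 tested myeloid markers fell and none rose, and their summed level went from 3420 to 3580 CPM in the controls to 2980 to 3110 CPM with QKI shRNA. LYZ went from 758 ± 43.3 to 462 ± 27.3 CPM and ELANE from 1650 ± 58.9 to 1710 ± 29.9 CPM, and T-cell markers were near 0 in both groups. The part of this shift in the members' values was not tested.

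No member passed the test of a difference between the 2 knockdowns. That test called 0.0254% of 15730 genes, with 969 at an unadjusted p under 0.05, and gave an edgeR adjusted p of 0.999 for every member. TSC22D3 had the largest difference, 0.35 on the log2 scale (SE 0.36), in favour of the libraries labelled HPB-ALL. With the Jurkat and labelled HPB-ALL replicate numbers as blocks 3.31% of genes were called (520), and the members' adjusted p lay between 0.417 and 0.921. The spread thus leaves room for differences of the size of the knockdowns' own values.

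The rest of the pathway was not called in Jurkat. None of the 22 genes of the receptor complex, 25 other response genes, 5 apoptosis genes, 7 resistance genes, 10 clock genes or 9 paralogues of the members passed the test there, with or without the replicate block. In the libraries labelled HPB-ALL, where 13.1% of genes rose and 10.5% fell, 5 of the 21 tested genes of the receptor complex and cofactors rose and 5 fell (4 and 3 with the replicate block, which called 18% of all genes). MED14, the Mediator subunit, fell by 0.35 on the log2 scale (SE 0.036, edgeR adjusted p = 3.29e-05). The coactivators NCOA2 (0.25, SE 0.04), CREBBP (0.20, SE 0.05) and NCOA1 (0.17, SE 0.04) rose, and the cyclophilin PPID, a co-chaperone of the receptor, fell by 0.23 (SE 0.05).

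**Figure D4:**
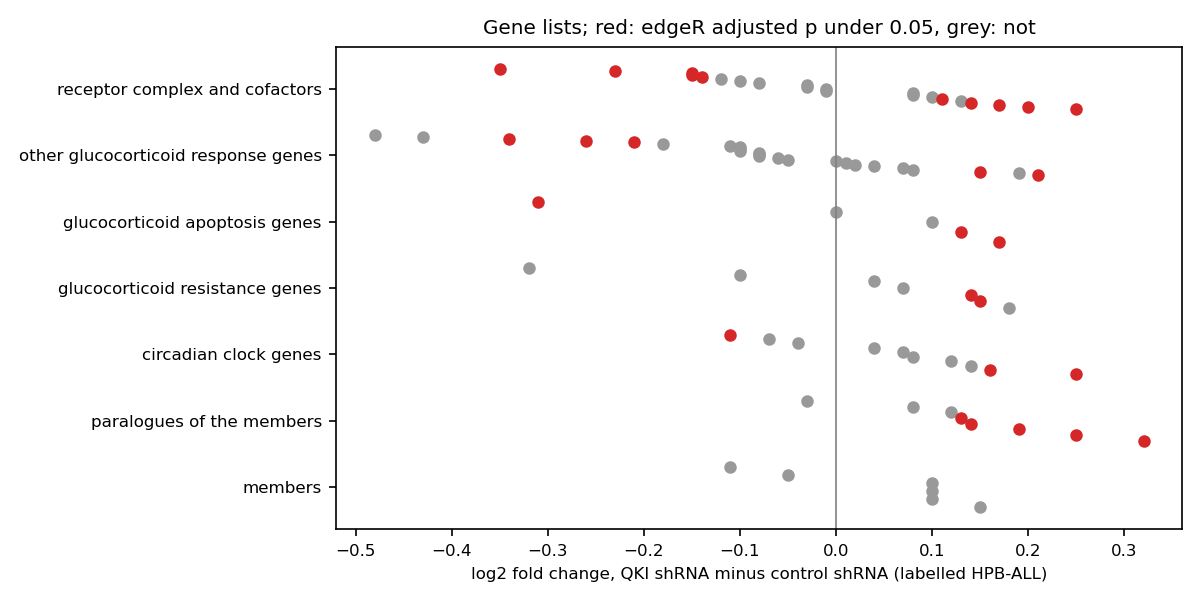
Log2 fold change of the genes of each list in the libraries labelled HPB-ALL, QKI shRNA minus control shRNA, 1 point a gene, red where the edgeR adjusted p is under 0.05. Each of the lists drawn has points on both sides of 0, the members carry no red point, and the red points of the paralogue list are all above 0.

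Of the 24 other response genes tested, 2 rose and 3 fell. ELL2, an elongation factor, rose by 0.21 (SE 0.052) and TXNIP, an inhibitor of thioredoxin, by 0.15 (SE 0.052). PFKFB2, a regulator of glycolysis, fell by 0.26 (SE 0.052), PIK3IP1, an inhibitor of PI3 kinase, by 0.21 (SE 0.048) and the metallothionein MT2A by 0.34 (SE 0.087). The list's median was -0.08, beside -0.01 over all genes. Among the 5 apoptosis genes, BCL2 fell by 0.31 (SE 0.042, edgeR adjusted p = 0.000206), while the pro-apoptotic BCL2L11 rose by 0.17 (SE 0.037, edgeR adjusted p = 0.00528) and BMF by 0.13 (SE 0.035, edgeR adjusted p = 0.0173).

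AKT1, a kinase that phosphorylates the receptor, rose by 0.15 (SE 0.043) and CASP1 by 0.14 (SE 0.047), the 2 of 7 tested resistance genes that passed, and neither passed with the replicate block. Of 10 clock genes, PER2 rose by 0.25 (SE 0.043) and CRY1 by 0.16 (SE 0.044), and NR1D2 fell by 0.11 (SE 0.036), a call lost with the replicate block (edgeR adjusted p = 0.0866). Of 8 tested paralogues of the members, 5 rose and none fell, namely PER2, KLF10 (0.32, SE 0.088), TSC22D2 (0.19, SE 0.045), KLF13 (0.14, SE 0.037) and TSC22D4 (0.13, SE 0.034). With the replicate block 3 of them passed. In size these changes were between 0.11 and 0.35 on the log2 scale, close to the median of 0.23 over all genes that passed.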

How the data were processed

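RNA-seq was analysed from 3 deposited tables of raw gene counts, which hold whole-number counts for 62754 genes in 40 libraries. Per the submitters' processing notes, reads were trimmed with Trimmomatic 0.39 and aligned to GRCh38 with STAR 2.7.11b; the sources used here do not give the counter, its strand setting or the annotation. Groups came from the sample labels. Of the 4 LOUCY columns, 2 carry the same replicate number and were used as libraries a and b. Rows that name no gene held 13.0% to 15.1% of the totals in the table labelled HPB-ALL and were left out. IDs of 62700 genes matched a symbol, and 58261 matched GENCODE 29, which gave positions and exon lengths.

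Each table was tested with edgeR 4.0.16 in R 4.3.3 (filterByExpr, TMM, robust quasi-likelihood fit, Benjamini-Hochberg over all genes tested, adjusted p under 0.05), without a replicate block. The difference between the knockdowns was an interaction contrast over 16 libraries, and the 6 lines were tested in 1 fit of 24 libraries. DESeq2 1.42.0, limma-voom (limma 3.58.1), other size factors, no filter, a block and leaving out libraries were alternatives. The test was checked on simulated counts with 200 changed genes. Deviations of same-numbered Jurkat libraries correlated in every pair (r = 0.337 to 0.556). Differently numbered ones had r from -0.555 to 0.36, so the 2 ranges overlapped slightly. These numbers were taken to pair the libraries, on the ground of the data and not of the labels. No replicates of a group agreed within sampling noise (chi-square per degree of freedom at least 12.7). The members, the gene lists, the alternatives and the other tests were chosen with earlier results of these data known. Genes named besides the members are, of each list, up to 5 that passed with the smallest p, and the 3 genes most correlated with each member. Those named for replicate 4 or beside the summed level of LOUCY, ELANE and LYZ were chosen after their values were seen. Of the genes this rule names, 2 are not reported here.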

Additional observations from a re-analysis of the deposited data

Results flagged for a closer look

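Libraries far from the other 3 of their group were looked for in 53 combinations of a gene and a group by Dixon's test at 95%, and 11 were found; chance gives about 1 in 20. Most were replicate 4 of an untreated line. TSC22D3 stood at 1300 CPM in LOUCY replicate 4 (next library 672), at 77.1 CPM in HPB-ALL replicate 4 (next 17.6), at 22.3 CPM in TALL-1 replicate 4 (next 5.03) and at 57.9 CPM in DND-41 replicate 4 (next 11.9). In LOUCY the same library was the high one for NR3C1 (153 CPM, next 82), PER1 (53.3 CPM, next 32.8) and BCL6 (98.7 CPM, next 55). PER1 in KARPAS-45 was high in replicate 3, at 15.8 CPM (next 13.8).

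Among the knockdown libraries, Jurkat control replicate 2 was high for TSC22D3 (4.64 CPM, next 2.32) and for FKBP5 (89.9 CPM, next 60.9). QKI shRNA replicate 4 of the libraries labelled HPB-ALL was low for TSC22D3, at 99.3 CPM (next 150).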

How the results depend on the processing

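Among the lines, the 150 alternative values of the 5 tested members all kept their call, and the count of member pairs called was 59 to 64. That includes the fit without replicate 4 of every line, which, like the fit without robust estimation, was added after seeing the data. The alternatives without a filter tested KLF9 too (62 of 90 pairs). In the libraries labelled HPB-ALL 88 of 90 alternative values stayed on their side of the threshold and 2 crossed it, both when 1 library was left out (NR3C1 and TSC22D3). The count of genes called there was 299 against a fold of 1.2. With the replicate block it was 3237; same-numbered libraries did not correlate there (r = -0.179 to 0.045). Among the lines the block gave 59 member pairs.

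In Jurkat the count of genes called was 2 with DESeq2, 11 with the replicate block and 5 in replicates 3 and 4 alone. No member passed there under any alternative, and small values changed sign. With replicates 1 and 2 alone NR3C1 was -0.04, KLF9 -0.04 and BCL6 -0.17, and with replicates 3 and 4 alone FKBP5 was 0.02. Leaving out 1 library gave NR3C1 -0.03 to 0.11, TSC22D3 -0.46 to 0.16, FKBP5 -0.19 to 0.05, KLF9 -0.02 to 0.19 and BCL6 -0.17 to 0.17 (log2). The cause was not tested.

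The difference between the knockdowns called 102 genes with DESeq2, 520 with the replicate block and 3 to 10 when 1 library was left out. FKBP5 was 0.01 with RLE size factors, 0.05 with no filter and 0.01 with DESeq2. With 1 library left out the difference was -0.04 to 0.14 for NR3C1, -0.03 to 0.63 for TSC22D3, -0.19 to 0.10 for FKBP5, -0.03 to 0.09 for PER1 and -0.08 to 0.27 for BCL6. No member passed.

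Depth limits KLF9 in the untreated lines and TSC22D3 in KARPAS-45, where 12 counts in 4 libraries leave the fitted differences from other lines without a firm size. It also limits TSC22D3 in ALL-SIL replicate 3, at 5 counts.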
